A study of Mus musculus with 10 samples.

Results

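The transcripts described here encode 10 heterogeneous nuclear ribonucleoproteins (hnRNPs): Hnrnpa0, Hnrnpa1, Hnrnpa2b1, Hnrnpa3, Hnrnpab, Hnrnpc, Hnrnpd, Hnrnpk, Hnrnpl and Hnrnpu. They were taken by gene name from reads aligned to mRNAs whose poly(A) tail estimate carried the quality tag PASS. Reads of all 10 genes were found, among 13647 genes in the same selection, and they gave 12400 of its 2132085 alignments on 54 annotated transcripts (contigs). The members are defined by gene name, with no threshold on a measured value.

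The RNA came from P19, a mouse embryonal carcinoma cell line labelled WT, kept undifferentiated. One group received a pool of scrambled siRNAs (siCtl) and the other a single siRNA against Larp1 (siLarp1). Cells were collected 24 h after transfection (3 siCtl and 3 siLarp1 libraries) or at 48 h, after a repeat transfection 24 h into the experiment (2 and 2 libraries). The libraries carry the numbers 19, 21 and 22 at 24 h and 24 and 25 at 48 h, in both treatments, and values below follow that order. Which labelled replicate each number stands for is not given in the sources used here. Treatments were pooled and sequenced apart at 24 h, so an effect of siLarp1 and one of the pool cannot be told apart at that time, while the 48 h libraries shared 1 pool. The study calls its replicates biological, but no label names separate cultures, so the p-values measure the spread between these libraries.

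hnRNPs are abundant nuclear RNA-binding proteins that coat pre-mRNA as it is transcribed and steer splicing, 3′ end formation, export and decay. The A/B and C proteins form the core of the classical hnRNP particle, and many family members regulate their own mRNAs through alternative splicing. Larp1 binds the cap and first bases of mRNAs that begin with a 5′-terminal oligopyrimidine (TOP) motif, a C followed by a run of pyrimidines, and it also binds poly(A) and the poly(A)-binding protein. The comparisons below address where these mRNAs end, how long their tails are at each end, and what happened to both when Larp1 was lowered.

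The last 30 bases before the 3′ ends that the results turn on are shown first, because the tails of 5 genes differed between them. Capitals mark AATAAA, the most common polyadenylation signal. Each sequence is written 5′ to 3′ on the transcript strand of GRCm38, and in 2 cases the window was moved upstream, by 2 and 10 bases, to hold the signal with the bases before it. In each pair the proximal end lies upstream of the distal one, and both lie in the last exon and the 3′ UTR of the GENCODE transcript most read there.
Hnrnpab proximal, chr11:51600876-51600905, minus strand: aagcttttgaAATAAAaatgaaaaacaaaa
Hnrnpab distal, chr11:51600100-51600129, minus strand: gttttcttaAATAAAttgagggagaccttg
Hnrnpa0 proximal, chr13:58126915-58126944, minus strand: ttatttttAATAAAtcattgtgtttgaccg
Hnrnpa0 distal, chr13:58125879-58125908, minus strand: ggatatcacaAATAAAgaattcaattctta
Hnrnpk proximal, chr13:58391950-58391979, minus strand: atgatttttaaAATAAAtttagtgaatcta
Hnrnpk distal, chr13:58391238-58391267, minus strand: ccacatctaAATAAAacttccatgatgtta
Hnrnpa3 proximal, chr2:75665729-75665758, plus strand: gtaccaggAATAAAaaattaaggaattttt
Hnrnpa3 distal, chr2:75666092-75666121, plus strand: taccttcaaatgaaaaagatctcaaaagtt
Hnrnpa1 proximal, chr15:103244548-103244577, plus strand: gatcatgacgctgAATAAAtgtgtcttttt
Hnrnpa1 distal, chr15:103244922-103244951, plus strand: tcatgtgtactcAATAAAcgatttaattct
AATAAA was found upstream of all these ends except the distal end of Hnrnpa3, where neither AATAAA nor ATTAAA lay within 50 nt. Over all 4247 ends found in 2576 genes, 63.0% had AATAAA within 50 nt upstream and 16.6% had ATTAAA without it, both searched on the transcript strand.

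Larp1, the siRNA's target, was lower in every siLarp1 library. Its mRNA stood at 75.9, 84.2 and 85.0 kept reads scaled to the library total (RPM, reads in each 1e6) in the siCtl libraries at 24 h and at 33.4, 44.9 and 19.1 RPM in the siLarp1 libraries. At 48 h the values were 169 and 123 RPM against 18.5 and 24.9 RPM. The groups did not overlap at either time, although only 147 Larp1 reads were found in all and the limma test, with Benjamini-Hochberg adjustment over all genes, did not pass at 24 h (log2 fold change -1.34, SE 0.42, adjusted p = 0.764) or 48 h (-2.55, SE 0.62, adjusted p = 0.0986). The libraries held from 112720 to 423398 kept reads, each siLarp1 library at 24 h fewer than each siCtl library, and from 668 to 2467 hnRNP reads. Of 10 embryonal carcinoma markers 9 had reads (8083 in all, summed level 3355 to 4646 RPM) and Zfp42 had none. The 8 neuron markers summed to 544 reads, with none of Neurod1. The 4 endoderm markers had 2 reads and the 4 fibroblast markers 15, with none of Sox17, Afp or Col3a1. The share of the <30-nt class in all kept reads of a library ranged from 2.15% to 4.20%.

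In these cells Hnrnpa1, a splicing regulator of the core particle, was the most abundant of the 10 mRNAs. A read here is 1 molecule sequenced from its 3′ end, so RPM was compared between genes without dividing by length. Hnrnpa1 averaged 1484 ± 96.4 RPM (SD over 10 libraries), rank 125 of all genes, and was above the next gene in 10 of 10 libraries. Hnrnpab, which is related to the A/B proteins and to Hnrnpd, followed at 1145 ± 172 RPM and was above Hnrnpa3 in 10 of 10. Hnrnpl, which binds CA repeats, was the least abundant at 105 ± 24.0 RPM (rank 1326) and lay below Hnrnpd in every library. The 10 genes thus spread over a wide range, with clear steps at both ends.

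The order in between was less sharp. Hnrnpa3, another A/B protein, averaged 699 ± 123 RPM and was above Hnrnpk in 9 of 10 libraries. Hnrnpk, which binds C-rich RNA through KH domains, averaged 593 ± 88.6 RPM. Hnrnpa2b1, an A/B protein also known for mRNA transport, averaged 564 ± 114 RPM and was below Hnrnpk in 5 of 10 libraries, so these neighbours did not differ beyond their spread. Hnrnpu, the scaffold attachment factor that links RNA to chromatin, averaged 427 ± 89.9 RPM. Hnrnpc, which packages pre-mRNA and binds uridine tracts, averaged 424 ± 64.5 RPM and was below Hnrnpu in 4 of 10 libraries only. Hnrnpa0, a binder of AU-rich elements, averaged 399 ± 89.1 RPM and was below Hnrnpc in 7 of 10 libraries. Neither Hnrnpu and Hnrnpc nor Hnrnpc and Hnrnpa0 differed by more than the spread of their difference. Hnrnpd, the AU-rich element binding protein AUF1, averaged 301 ± 65.3 RPM and lay below Hnrnpa0 in 8 of 10. The plot of levels shows the value of each gene in every library.

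**Figure D1:**
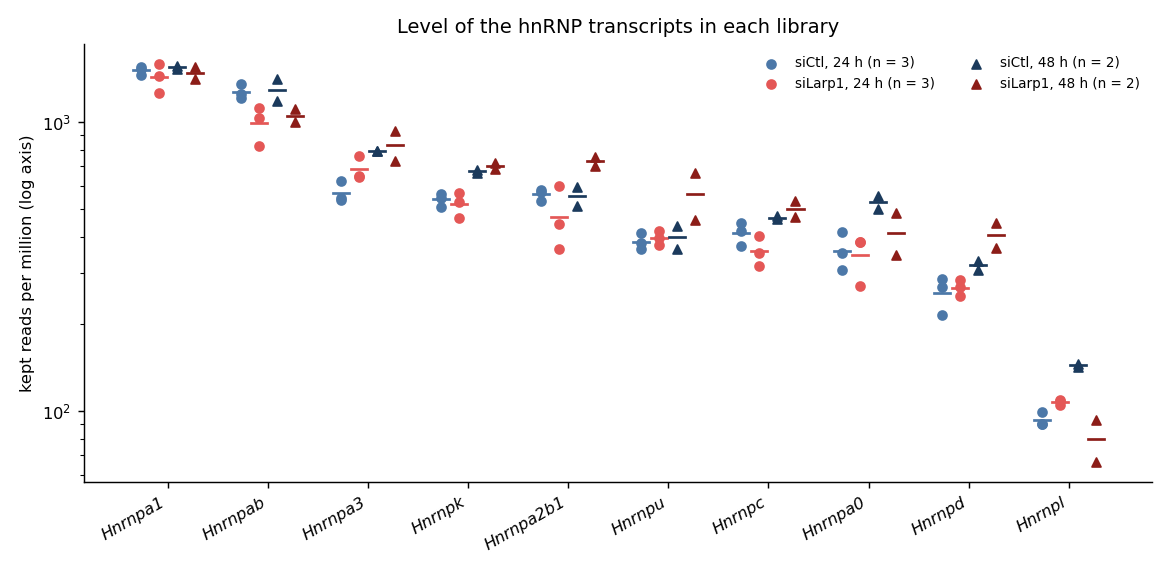
Level of the 10 hnRNP mRNAs in each library, in RPM on a log axis. Points are libraries and bars are group means (siCtl and siLarp1, 3 libraries each at 24 h and 2 each at 48 h). Hnrnpa1 and Hnrnpab lie highest and Hnrnpl lowest in every library, and the siLarp1 libraries of Hnrnpab lie below the siCtl libraries at both times.

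Tail length set the genes in a different order. Hnrnpl mRNA, the rarest, had the longest mean tail, 174.8 ± 22.3 nt (SD over 10 libraries, 208 reads in all), and was above Hnrnpk in 9 of 10 libraries. Hnrnpk averaged 133.6 ± 7.02 nt and Hnrnpu 126.6 ± 9.74 nt. Among 1267 genes with at least 10 reads in every library, whose median was 108.4 nt with quartiles of 102.6 and 115.2 nt, Hnrnpk stood at percentile 96.8 and Hnrnpu at 93.1. Hnrnpl had too few reads to be among them. These genes, one a KH protein and another a chromatin-linked scaffold protein, lay in the upper tail of the distribution.

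The remaining members lay closer to the middle of all genes. Hnrnpc averaged 113.9 ± 7.32 nt, Hnrnpa0 113.4 ± 8.09 nt and Hnrnpd 108.5 ± 8.14 nt. Hnrnpa2b1, Hnrnpa1 and Hnrnpa3, all A/B proteins, averaged 105.1 ± 4.86, 105.0 ± 2.78 and 104.8 ± 3.90 nt and did not differ from each other beyond their spread. Hnrnpab had the shortest mean tail, 100.8 ± 5.13 nt (percentile 18.9), and was below Hnrnpa3 in 7 of 10 libraries. That difference, 4.04 ± 6.62 nt, was also within its spread.

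**Figure D2:**
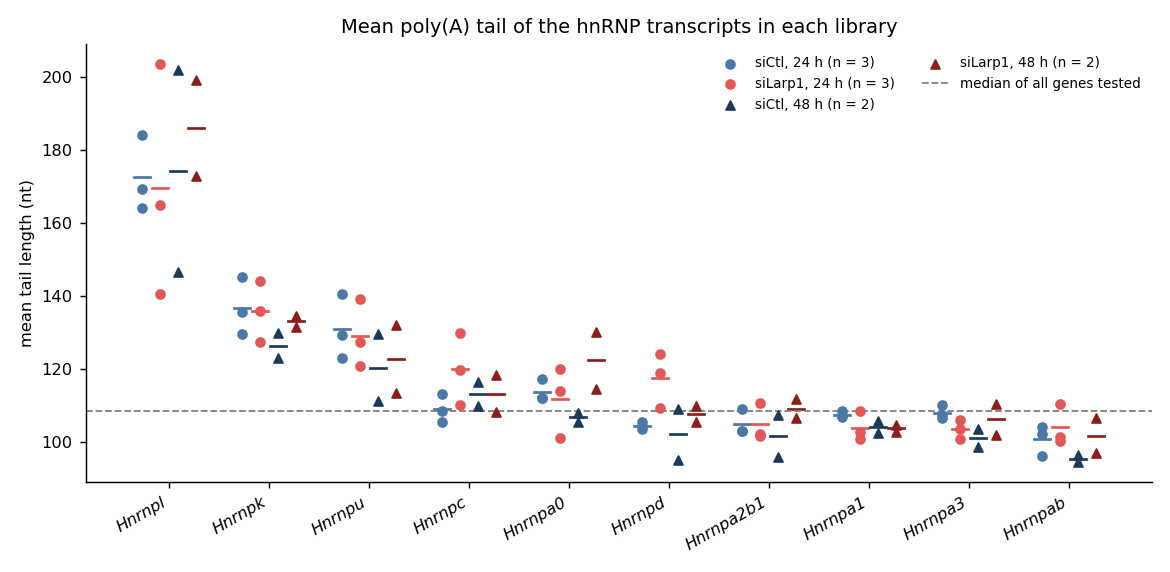
Mean poly(A) tail of the 10 hnRNP mRNAs in each library, in nt. Points are libraries, bars are group means and the dashed line is the median of all genes tested (108.4 nt). Hnrnpl, Hnrnpk and Hnrnpu lie above the line in every library, and most points of Hnrnpab lie below it.

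The share of very short tails (<30 nt) separated the 2 most abundant members. Over all libraries 142 of 2417 Hnrnpab reads were in this class (5.88%, 95% Wilson interval 5.01 to 6.88), against 18 of 3037 Hnrnpa1 reads (0.593%, 0.375 to 0.935). The median over 2612 genes with at least 100 reads was 2.84%, and Hnrnpab stood at percentile 90.2 and Hnrnpa1 at 5.67. The intervals cover counting error of reads pooled over libraries. In single libraries Hnrnpab ranged from 4.03% to 9.17% and Hnrnpa1 from 0% to 1.52%, so the 2 genes did not overlap. Hnrnpk (0.681%) and Hnrnpu (1.53%) were low as well, and the other members except Hnrnpl lay between 2.56% and 3.76%. For Hnrnpl it was 0 of 208 reads, with a Wilson interval that reaches 1.81%.

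Tails of 30 to 90 nt, the ~60-nt class of the study, made up 43.7% of Hnrnpa2b1 reads, 41.3% of Hnrnpab, 40.9% of Hnrnpd and 40.6% of Hnrnpa1. Hnrnpa3 (39.2%) and Hnrnpc (37.4%) were near the median over genes, 37.1%. Hnrnpa0 (30.2%), Hnrnpk (24.2%), Hnrnpu (23.8%) and Hnrnpl (7.21%) lay below it. Hnrnpa1 thus combined an ordinary share of ~60-nt tails with few below 30 nt.

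Most of the 10 genes used more than 1 3′ end. An end was defined as the reads that stop within 30 nt of the most used position, holding at least 5% of the reads of its gene. The comparison of ends was added after seeing the data and was run on all genes with at least 100 reads, where 97.7% of reads fell at such an end. Hnrnpd and Hnrnpl had 1 end, with 88.9% and 98.1% of their reads. Hnrnpab used the proximal end for 79.2% of its reads and the distal end, 776 nt further, for 9.18%. Hnrnpa1 showed the opposite use, 22.6% proximal and 73.7% distal, 374 nt apart. The major end was thus the upstream one in Hnrnpab and the downstream one in Hnrnpa1.

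Hnrnpa0 ended at chr13 58126913 in 70.8% of reads and 1034 nt further in 25.4%. Hnrnpa2b1 ended at chr6 51462760 (66.7%) or at 51461121 (29.98%), 1639 nt further on the genome. That is not a distance along the mRNA. ENSMUST00000090002.9, read at the distal end, is 1662 nt long, and ENSMUST00000114459.7, read at the proximal end, 1728 nt. Hnrnpa3 had 4 ends, the main ones with 40.4% and, 353 nt further, 33.8% of its reads. Hnrnpc had 3, with 57.3%, 21.3% and 16.6%. Hnrnpk had 3, with 70.2%, 23.1% and 5.02%. Hnrnpu had 4, with 10.3%, 51.5%, 22.2% and 8.90% of the 427 reads that could be placed, out of 849. The most used end of Hnrnpu, at chr1 178329036, had neither AATAAA nor ATTAAA within 50 nt, like the second main end of Hnrnpa3. An alignment that runs to the end of its annotated transcript cannot show an end beyond it, and genomic A bases at an end cannot be told from the tail.

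**Figure D3:**
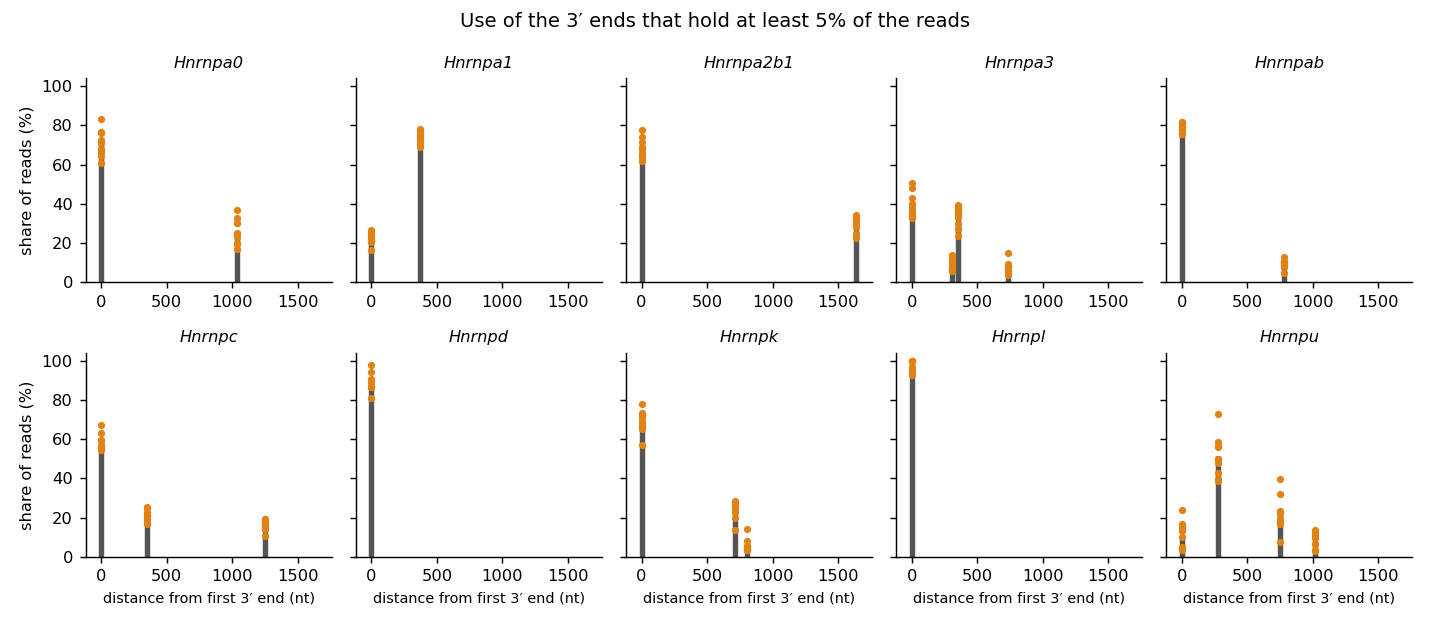
Use of the 3′ ends of the 10 hnRNP genes. The x axis gives the genomic distance from the most upstream end in nt. Bars give the mean over libraries of the share of the gene's reads (%), and points give the share in each of the 10 libraries. Hnrnpab and Hnrnpa0 favour the upstream end, Hnrnpa1 favours the downstream one, and Hnrnpd and Hnrnpl have 1 end each.

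Tails were longer at the distal than at the proximal end in 5 of the 7 hnRNP mRNAs that could be tested. Of 127 genes with at least 5 reads at each of their 2 most used ends in every library, 22% differed by limma on the difference within each library with Benjamini-Hochberg adjustment, and 15.7% (20 genes) had longer tails at the distal end. The median difference over the 127 genes was 3.66 nt. Both ends were read in the same library, and each library gave 1 difference per gene.

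Hnrnpab had a mean tail of 98.7 ± 5.96 nt at the proximal and 121 ± 10.9 nt at the distal end (SD over 10 libraries). In the siCtl libraries at 24 h the distal tails measured 109.8, 119 and 135 nt against 94.0, 104 and 98.9 nt proximally, and in the siLarp1 libraries 108, 124 and 127 nt against 96.2, 101 and 109 nt. At 48 h they were 126 and 103 nt against 94.2 and 92.3 nt in siCtl, and 133 and 124 nt against 92.0 and 105 nt in siLarp1. The distal tail was longer in 10 of 10 libraries, by 22.6 nt in the limma fit (SE 4.50, adjusted p = 0.000418). The very short tails of the gene lay mostly at the proximal end, with 127 of 1914 reads (6.64%) below 30 nt there against 0 of 222 at the distal end. Such a 0 was taken to allow up to 3 reads, here a share of 1.35%. The distal end held as few as 7 reads in a library.

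Hnrnpa0 measured 108 ± 8.82 nt proximally and 129 ± 11.5 nt distally. The distal tail was longer in 9 of 10 libraries, from 103.5 to 142.5 nt distally against 95.2 to 124 nt, with siCtl library 21 at 24 h the exception. The difference was 20.5 nt (limma, SE 4.92, adjusted p = 0.00236). As few as 6 distal reads stood behind a library, and with medians in place of means (16.9 nt, adjusted p = 0.0523) or at 24 h alone (17.4 nt, adjusted p = 0.054) the limma test did not pass (adjusted p 0.000284 to 0.0577 over 15 alternatives).

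Hnrnpa1, with the most reads (687 proximal and 2237 distal), measured 94.6 ± 6.75 nt and 107 ± 3.57 nt. The distal tail was longer in 10 of 10 libraries, by 1.27 to 24.6 nt, and by 13.4 nt in the limma fit (SE 2.77, adjusted p = 0.000612). Hnrnpa3 measured 95.7 ± 6.61 nt at its first and 110.2 ± 6.36 nt at its distal main end, again with longer distal tails in 10 of 10 libraries. Its difference was 13.7 nt (limma, SE 3.81, adjusted p = 0.00895) and was 7.33 nt (adjusted p = 0.44) with reads of mapping quality of at least 10 and 12.7 nt at 48 h alone (adjusted p = 0.285), against adjusted p-values of 0.00262 to 0.44 over its 15 alternatives. Its share of tails below 30 nt was 4.42% (24 of 543) at the first end and 1.54% (7 of 454) at the distal one. Both A/B genes thus differed in the same direction as Hnrnpab and Hnrnpa0.

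Hnrnpk measured 129 ± 10.2 nt proximally and 145 ± 14.5 nt distally, longer distally in 7 of 10 libraries. The siLarp1 library 19 at 24 h went the other way, with 141 nt proximally and 129 nt distally, as did siLarp1 library 22 at 24 h and siLarp1 library 24 at 48 h. The difference was 16.3 nt (limma, SE 4.36, adjusted p = 0.00609). It was 5.94 nt at 24 h alone (limma, adjusted p = 0.445) and 26.7 nt at 48 h alone (adjusted p = 0.0111), and without siLarp1 library 25 at 48 h it was 12.7 nt (adjusted p = 0.0523). Over 14 alternatives its adjusted p ranged from 0.00156 to 0.445.

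Hnrnpc and Hnrnpa2b1 gave no such call. Hnrnpc measured 113.4 and 110.7 nt at its first and second ends, a difference of -0.82 nt (limma, 95% interval -11.9 to 10.3, adjusted p = 0.941). Hnrnpa2b1 measured 106 nt proximally and 99.5 nt distally, a difference of -4.63 nt (-13.7 to 4.48, adjusted p = 0.495), and its distal end held more tails below 30 nt (24 of 343, 6.997%) than its proximal end (17 of 763, 2.23%). Hnrnpu had too few placed reads for the test, as 427 of its 849 reads were on a contig of the annotation used. Its tails were 132 ± 8.58 nt at its most used end and 110.3 ± 12.5 nt at the next one downstream. They were shorter distally in 10 of 10 libraries but with as few as 2 distal reads in one. A longer distal tail was therefore not common to all members.

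**Figure D4:**
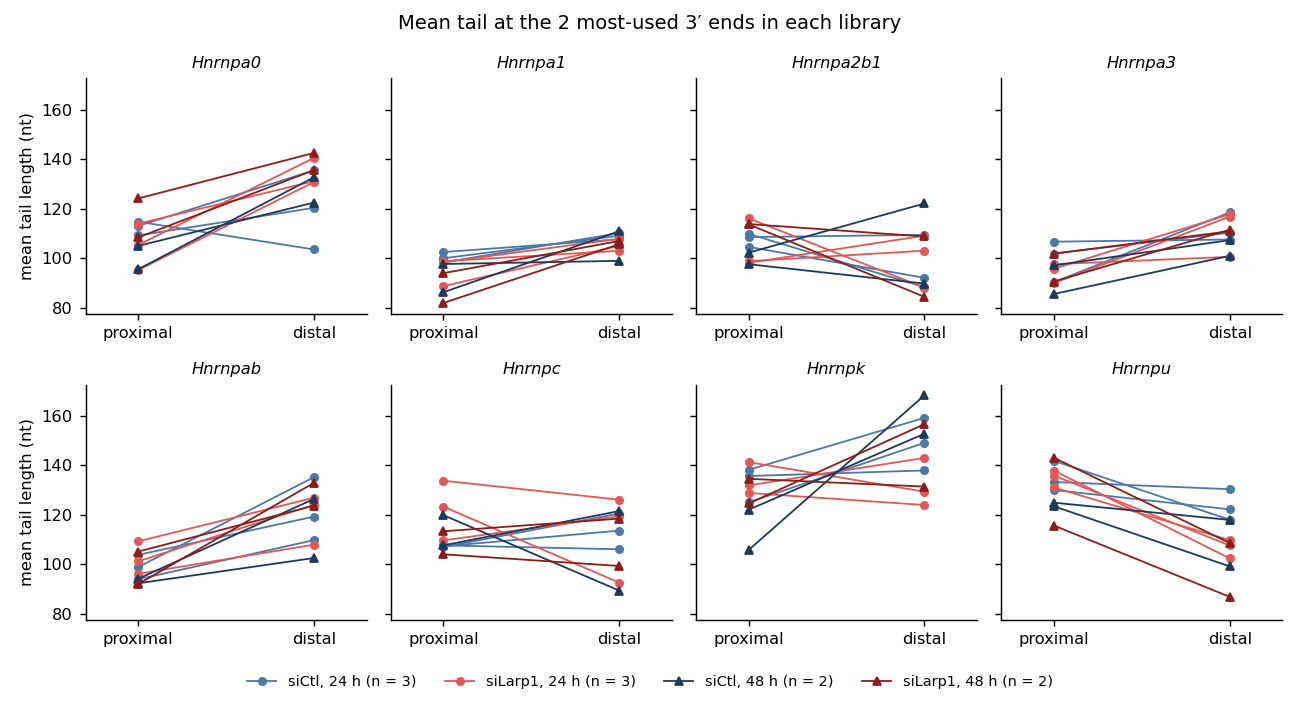
Mean tail (nt) at the proximal and distal of the 2 most used 3′ ends, for the 8 hnRNP genes with 2 or more ends. Each line joins both values of 1 library, coloured by group. Lines rise in 10 of 10 libraries for Hnrnpa1, Hnrnpa3 and Hnrnpab, in 9 for Hnrnpa0 and in 7 for Hnrnpk, and fall in 10 of 10 for Hnrnpu.

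Annotated isoforms also differed in tail length in Hnrnpk. The second most read contig, ENSMUST00000043269.13 (307 reads), had tails of 120.1 ± 14.5 nt against 143 ± 10.8 nt for the most read, ENSMUST00000224182.1 (331 reads). The difference was -24.9 nt (limma on the difference within each library, SE 5.05, adjusted p = 0.000498), where 7.32% of 205 genes differed. It was -27.6 nt with reads of mapping quality of at least 10 (adjusted p = 0.00635), and over its 12 alternatives the adjusted p ranged from 5.29e-05 to 0.00734. The first 3′ end held 78.2% of the reads of the former contig and 69.8% of those of the latter. None of the other 7 members tested passed, and the largest of those differences was -9.96 nt in Hnrnpa3 (adjusted p = 0.131).

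These Hnrnpk contigs part at the start of the last exon, which begins at chr13 58392476 or, 60 nt downstream, at 58392416 on the minus strand. Grouping all Hnrnpk contigs by this start, which was chosen after seeing the data and is given without a test, 732 reads with the upstream start had tails of 141 ± 7.35 nt and 443 reads with the downstream start 121 ± 13.1 nt. The downstream start went with shorter tails in 8 of 10 libraries, with siCtl library 19 and siLarp1 library 22 at 24 h the exceptions. At the first 3′ end alone the values were 135 ± 10.5 nt and 119.9 ± 14.1 nt, again shorter in 8 of 10 libraries, so the difference was present among reads that stop at the same place. With reads of mapping quality of at least 10 they were 141 ± 14.3 nt and 120.2 ± 17.4 nt. The downstream start took 30.2% to 41.1% of the reads in each library.

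Isoform assignment was uncertain in most members. The share of reads with a mapping quality under 10, where the aligner found contigs that match nearly as well, was 0.384% in Hnrnpa0, 15.3% in Hnrnpab, 32.2% in Hnrnpd and 40.4% in Hnrnpa1. It was 52.9% in Hnrnpa3, 59.7% in Hnrnpk, 62.4% in Hnrnpa2b1, 78.3% in Hnrnpc, 94.7% in Hnrnpl and 100% in Hnrnpu. For Hnrnpu the reads were split between ENSMUST00000037748.8 (424) and ENSMUST00000216820.1 (414), and the latter, not in the annotation used to place the ends, was left out there. Reads shared with another gene were few, at most 7 in any member.

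At 24 h no hnRNP mRNA passed the test for a change in level with siLarp1, and the same held at 48 h. Of the 10 members 4 were nominally higher and 6 lower at 24 h (median log2 fold change -0.03), and 6 were higher and 4 lower at 48 h (median 0.07). Over all genes the limma voom test with Benjamini-Hochberg adjustment called 0% of 4800 genes at 24 h, with 277 at an unadjusted p under 0.05, and 0.074% of 2704 genes at 48 h, with 165. Of the members, 3 at each time had an unadjusted p under 0.05. In bulk RNA, fewer cells with a transcript and less of it per cell cannot be told apart. The summed level of the 10 genes was 5941 ± 173 RPM in siCtl and 5559 ± 376 RPM in siLarp1 at 24 h (SD, n = 3), and 6699 ± 136 and 6745 ± 400.0 RPM at 48 h (n = 2).

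Hnrnpab came nearest to a change. Its level was 1246, 1206 and 1351 RPM in siCtl and 1026, 1114 and 821 RPM in siLarp1 at 24 h, and 1402 and 1181 RPM against 1104 and 995 RPM at 48 h. Each siLarp1 library lay below each siCtl library of its time, a pattern shared by 1.7% of 2698 genes. The log2 fold change was -0.39 at 24 h (limma, SE 0.11, adjusted p = 0.395) and -0.26 at 48 h (SE 0.14, adjusted p = 0.801). An exact permutation test stratified by time gave p = 0.0167, two-sided, the smallest it can give, and 1 of 40 such tests run on 10 members and 4 measures without adjustment. With the library number as a replicate block the 24 h value was -0.38 (limma, SE 0.088, adjusted p = 0.00872) and passed, while at 48 h it was -0.30 (adjusted p = 0.511). It also passed at 24 h with reads of every tail quality tag (-0.44, adjusted p = 0.0165), and without siLarp1 library 22 it was -0.25 (adjusted p = 0.844). Its 18 alternatives gave adjusted p-values between 0.00872 and 0.998 at 24 h, and between 0.511 and 0.982 for the later time. The 48 h value was -0.16 without siCtl library 24 and -0.41 without siCtl library 25.

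The A/B relatives of Hnrnpab showed no common direction. Hnrnpa3 stood at 621, 543 and 536 RPM in siCtl and 642, 763 and 649 RPM in siLarp1 at 24 h, without overlap (log2 fold change 0.29, SE 0.13, limma adjusted p = 0.809). An exact permutation test at that time gave p = 0.1, the smallest possible with 3 libraries per group. At 48 h Hnrnpa3 stood at 789.6 and 789.0 RPM against 925 and 729.96 RPM, so the groups overlapped. Hnrnpa2b1 stood at 569, 578 and 531 RPM against 442, 598 and 363 RPM at 24 h and at 594 and 509 RPM against 753 and 705 RPM at 48 h. Its log2 fold change was -0.29 at 24 h and 0.43 at 48 h, and the difference between the times, 0.72 (SE 0.23, unadjusted p = 0.0028 by limma), did not pass adjustment (adjusted p = 0.766). Hnrnpa1 was 0.95 times its siCtl level at 24 h and 0.96 times at 48 h, with 95% intervals of the log2 fold change of -0.26 to 0.10 and -0.30 to 0.20.

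Hnrnpl, at low read numbers, passed at neither time. It stood at 89.7, 90.1 and 99.2 RPM in siCtl against 108, 105 and 108 RPM in siLarp1 at 24 h. At 48 h the values were 142 and 145 RPM against 92.5 and 66.4 RPM. The groups overlapped at neither time, in opposite directions. An exact permutation test gave p = 0.1 at 24 h and 0.333 at 48 h, the smallest possible with so few libraries. The share of all genes without overlap at a single time was not counted. The log2 fold changes were 0.22 (SE 0.26) and -0.82 (SE 0.36), and their difference was -1.04 (SE 0.45, limma adjusted p = 0.980). Hnrnpu had a log2 fold change of 0.05 at 24 h and 0.47 at 48 h, where siCtl libraries stood at 364 and 436 RPM and siLarp1 libraries at 666 and 456 RPM. Hnrnpa0 (-0.03 and -0.40), Hnrnpd (0.08 and 0.36), Hnrnpc (-0.18 and 0.09) and Hnrnpk (-0.04 and 0.05) did not pass either. The 95% intervals left out 0 for Hnrnpab, Hnrnpa3 and Hnrnpa2b1 at 24 h and for Hnrnpa2b1, Hnrnpl and Hnrnpu at 48 h.

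**Figure D5:**
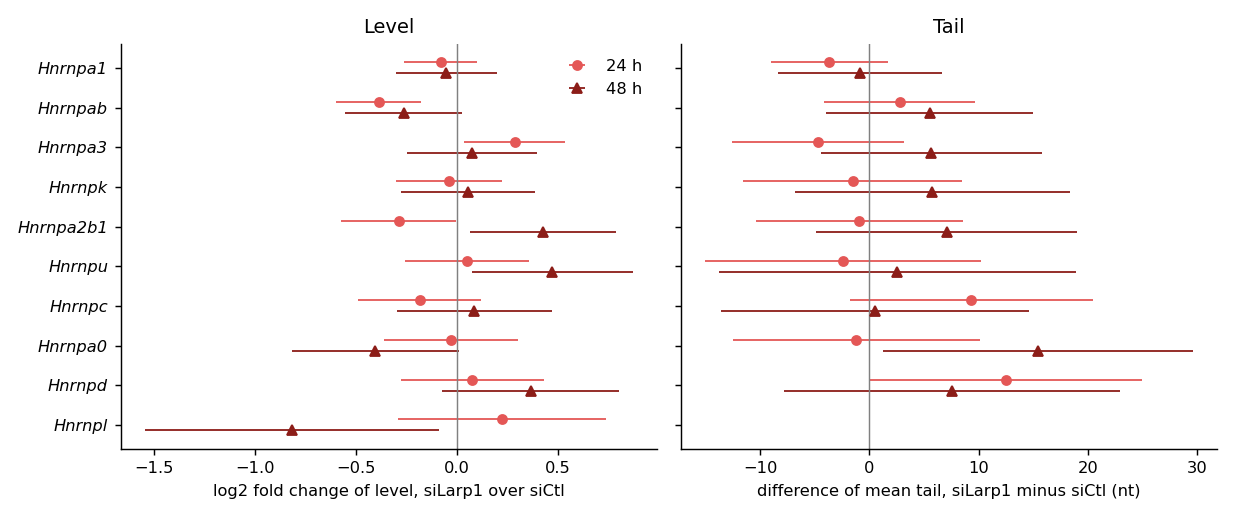
siLarp1 effect on the level (left, log2 fold change) and the mean tail (right, difference in nt) of each hnRNP mRNA at 24 h and 48 h. Points are limma estimates and lines their 95% intervals, not adjusted for the number of genes. Hnrnpl had too few reads for the tail test, and the tail intervals that leave out 0 are those of Hnrnpd at 24 h and Hnrnpa0 at 48 h.

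No member passed the test for a change in mean tail length. Limma with Benjamini-Hochberg adjustment called 0% of 1267 genes at 24 h and 0% at 48 h, with 100 and 72 genes at an unadjusted p under 0.05. Hnrnpd measured 104, 104 and 105 nt in siCtl and 124, 109 and 119 nt in siLarp1 at 24 h, without overlap, a difference of 12.5 nt (limma, adjusted p = 0.622). An exact permutation test at that time gave p = 0.1, the smallest possible with 3 libraries per group. At 48 h Hnrnpd measured 109 and 95.1 nt against 109.8 and 105.5 nt, so the groups overlapped. Hnrnpa0 measured 105 and 108 nt against 114 and 130.1 nt at 48 h (difference 15.4 nt, SE 6.93, limma adjusted p = 0.768) and 112.1, 111.9 and 117 nt against 120.01, 101 and 114 nt at 24 h. Of 9 members tested, 3 had a higher and 6 a lower estimate at 24 h (median difference -1.18 nt, against 0.649 nt over all genes, of which 667 of 1267 were above 0). At 48 h 8 had a higher and 1 a lower estimate (median 5.66 nt, against 1.57 nt over all genes, of which 708 were above 0).

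The ~60-nt class of Hnrnpd was lower with siLarp1 at both times. It held 43.4%, 41.9% and 38.9% of the reads in siCtl and 28.1%, 34.2% and 38.5% in siLarp1 at 24 h, and 45.9% and 52.7% against 43.1% and 34.1% at 48 h. This absence of overlap at both times, in that direction, was found in 2.14% of 842 genes. Over all genes this share was also lower more often than higher. The estimate was below 0 in 1098 of 1945 genes at 24 h (median -1.03 percentage points) and in 571 of 843 at 48 h (median -2.96 points). Among the members it was below 0 in 6 of 10 at 24 h and in 7 of 9 at 48 h. The stratified exact permutation test gave p = 0.0167, again its smallest, and unadjusted over 40 tests. The quasi-binomial test with Benjamini-Hochberg adjustment did not pass at 24 h (adjusted p = 0.842), where it called 0.36% of 1945 genes, or at 48 h (adjusted p = 0.716), where it called 0% of 843 genes, with 73 at an unadjusted p under 0.05. From 32 to 113 Hnrnpd reads stood behind each library.

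Hnrnpc went the same way at 24 h, with 41.9%, 39.1% and 41.2% in siCtl against 31.6%, 21.3% and 30.2% in siLarp1 (quasi-binomial test, adjusted p = 0.367). At 48 h its libraries overlapped, at 30.8% and 38.1% against 42.1% and 35.9%. Hnrnpa3 went the other way at 24 h, also without overlap, with 38.9%, 31.6% and 38.8% in siCtl against 44.2%, 43.1% and 39.2% in siLarp1. Its libraries overlapped at 48 h too. How many of all genes were without overlap at a single time was not counted. No member tested passed for this class at either time.

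The <30-nt class was measured with few reads in each member, and none passed the test at 24 h or 48 h. Over all genes the quasi-binomial test called 0% of 1945 genes at 24 h, with 132 at an unadjusted p under 0.05, and 1.07% of 843 genes at 48 h. The called genes, Rpl23a, Rps25 and Rpl32 among them, encode ribosomal proteins, whose mRNAs carry the TOP motif, and were higher in siLarp1. None was called with the library number as a replicate block or when any 1 of the 48 h libraries was left out. Hnrnpab, the member with the most such reads, had 75 of 1348 reads in siCtl and 21 of 401 in siLarp1 at 24 h, and 22 of 369 against 24 of 299 at 48 h (adjusted p = 0.663). Hnrnpu had 3 of 405 reads against 6 of 162 at 24 h (adjusted p = 0.732 in the quasi-binomial test, 0.038 in limma on the log2 odds, and 0.038 to 1 over 18 alternatives). Of those 6 reads 5 were in siLarp1 library 21 (9.43%, against 0% and 1.69% in libraries 19 and 22), and without it the log2 odds ratio went from 2.37 to 0.31 (adjusted p = 1). At 48 h Hnrnpu had 0 of 119 reads, which allows up to 2.52% (3 reads), against 4 of 163. Hnrnpk had 4 of 197 reads in siCtl against 0 of 198 in siLarp1 at 48 h, which allows up to 1.52% (3 reads), and 3 of 566 against 1 of 214 at 24 h.

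No member passed the test for a change in isoform or 3′ end use with siLarp1. The quasi-binomial test called 0.0878% of 2278 contigs at 24 h, both of Gapdh, and 0% of 871 at 48 h, where 26 had an unadjusted p under 0.05. The most read contig of Hnrnpa1, ENSMUST00000087351.8, took 1001 of 1586 reads in siCtl and 324 of 583 in siLarp1 at 24 h, a difference of -7.54 percentage points (adjusted p = 0.619), and -7.81 points at 48 h (adjusted p = 0.961). For 3′ ends 0% of 2016 were called at 24 h and 0% of 725 at 48 h, with 95 and 52 at an unadjusted p under 0.05. The first end of Hnrnpk took 68.1%, 78.2% and 73.5% of reads in siCtl and 57.1%, 71.0% and 66.3% in siLarp1 at 24 h (adjusted p = 0.941). The groups overlapped, and each siLarp1 library lay below the siCtl library of the same number (adjusted p = 0.974 with the number as a block). The mean tail at single ends, tested at 1140 ends, was called at 0% at both times, with 91 and 77 at an unadjusted p under 0.05.

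Other proteins of nuclear RNA handling gave no call in level either. Of 22 further hnRNP genes 20 were tested at 24 h (8 higher, 12 lower, median log2 fold change -0.03) and 16 at 48 h (10 higher, 6 lower, median 0.13), and none passed the limma test. The 12 SR splicing factors, which often act against hnRNPs at splice sites, had medians of -0.05 and 0.21, and 16 partner genes, such as import receptors and methyltransferases of hnRNPs, had medians of 0.06 and 0.13 over the 15 and 14 that were tested. No gene of these lists passed in level, mean tail or <30-nt share. Over all genes the medians were 0.01 and 0.03.

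Since Larp1 acts on mRNAs with a TOP motif, the starts of the 10 genes were searched for a C followed by at least 4 pyrimidines within 15 bases of either side of the RefSeq start. Sequences are from RefSeq on GRCm38.p6, transcript strand, with the run in capitals. They are shown for the 3 members that held such a run and for Hnrnpab, whose level came nearest to a change.
Hnrnpa0, chr13:58128542-58128571, minus strand: cgcgccttcagcggCCTCTTTgtgtggtgt
Hnrnpa3, chr2:75659244-75659273, plus strand: gtggtgactggccccgCCTCTTCCTCTCgg
Hnrnpd, chr5:99978924-99978953, minus strand: ccgttCTTCCgtcggccattttaggtggtc
Hnrnpab, chr11:51606867-51606896, minus strand: gtggtgcccggcttcggcattataaagagc
The run of Hnrnpa0 was 7 bases long and covered the first base of the mRNA, beginning 1 base before it. That of Hnrnpa3, 12 bases long, lay within the mRNA and began at base 2, and that of Hnrnpd, 5 bases long, began 10 bases before the start and ended before it. No such run lay in this window in Hnrnpab, Hnrnpa1, Hnrnpa2b1, Hnrnpc, Hnrnpk, Hnrnpl or Hnrnpu. In each of these genes the GENCODE start of the most read contig lay outside the window, at chr11 51606847 in Hnrnpab. A run at that start was not searched for, so its absence is not shown there. A run of this kind was found in 36.4% of 32851 promoters and in 58.8% of the 68 matched ribosomal protein genes. A C followed by at least 4 pyrimidines at the first RefSeq base itself was present in Hnrnpa0 alone of the members, and in 2.51% of promoters. By the GENCODE starts Hnrnpa3 had one as well. Its most read contig, ENSMUST00000111962.7, starts at chr2 75659267 and its second, ENSMUST00000111964.7, at 75659261, both within the run shown. Each of these first bases is a C followed by at least 4 pyrimidines. Direct RNA reads often stop short of the 5′ end (21.6% to 27.5% of kept reads in a library reached within 50 nt of it), so the starts used in these cells were not read from the data.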

How the data were processed

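Per the study's methods and the labels, the authors called bases with Guppy, demultiplexed with Deeplexicon, aligned reads with minimap2 2.20 to mm10 transcripts of GENCODE vM17 and estimated tails with Nanopolish. The deposited table has 1 line per read and contig, with tail length in nt, a quality tag, the barcode confidence (the authors' fraction from 0 to 1) and the mapping quality (the aligner's score). That table holds neither counts nor normalized values. Kept here were PASS alignments to annotated transcripts, without mitochondrial transcripts and, for the tests, without contigs that the table itself classes as pseudogenes (a gene with a pseudogene name stays in through a contig of another class).

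Members and gene lists were chosen with earlier results of these data known. All 10 members are named, contigs from 5% of a gene's reads, and genes of other lists where they passed a test in level, mean tail or <30-nt share. Fits used all 10 libraries with 4 group means (R 4.3.3, limma 3.58.1): voom on reads per gene (at least 30 at the time point), weighted limma on mean tails (at least 10 in each library), and a quasi-binomial model with moderated dispersion, not below 1, for shares (at least 100 reads). Adjusted p-values are Benjamini-Hochberg over all features, threshold 0.05. Ends were placed on GRCm38 with GENCODE vM21 exons. Isoform and end differences were taken within libraries (at least 5 reads each). Scripts were tested on simulated data. Libraries with the same number in both treatments deviated together in level (correlations 0.109, 0.336 and 0.361 at 24 h, 0.135 at 48 h, over 662 genes). The number was therefore used as a replicate block in an alternative. At 24 h each number carried the same barcode in both treatments, so number and barcode cannot be told apart there. At 48 h the barcodes of a number differed between treatments. For mean tails the correlations were 0.024, 0.058, 0.126 and 0.006. Alternatives included other read filters, minimums, class limits and scalings and leaving out each library.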

Additional observations from a re-analysis of the deposited data

How the results depend on the processing

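None of the 6 member results that passed a test changed sign under the alternatives run. Of all 2761 values that the alternatives gave for 177 member results, 187 had the other sign, in 84 results, none of which had passed. Examples are Hnrnpa3 level at 48 h without siLarp1 library 24 (log2 fold change -0.11), Hnrnpa1 level at 24 h without siLarp1 library 22 (0.02) and Hnrnpa0 mean tail at 24 h without siLarp1 library 21 (2.73 nt). With the library number as replicate block, the calls were 14 genes for level at 24 h (9 higher, 5 lower) and 13 at 48 h, 8 for mean tail at 24 h, 7 for mean tail per 3′ end at 24 h, 0 for the <30-nt share at 48 h and 0 for isoform share at 24 h. Among the members the block changed the call of Hnrnpab level at 24 h and no other. The cause of these changes was not tested.

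The other counts of calls that moved by more than 1.5 times were the following. Reads of every quality tag gave 2 and 4 genes for level and 9 and 22 for the <30-nt share at 24 h and 48 h. Barcode confidence of at least 0.9 gave 0 for both at 48 h. Level per contig gave 2 at 24 h and 1 at 48 h. The 48 h libraries alone gave 0 for level, 1 for mean tail, 0 for the <30-nt share and 11 for the tail difference between 3′ ends. Level gave 5 genes at 48 h with median-of-ratios scaling, 0 with log2(RPM + 1), and 22, 23 and 6 (24 h, 48 h and their difference) with no read minimum. Median tails gave 2 for tail at 24 h, 9 for isoform and 18 for 3′ end differences. For the <30-nt share, log2 odds gave 63 and 23, a minimum of 30 reads gave 0 at 48 h and a limit of 25 nt gave 0 at 48 h. Mapping quality of at least 10 gave 0 for isoform share at 24 h, 5 for isoform tails and 17 for 3′ end tails.

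Leaving out 1 library gave 0 to 8 calls for level at 24 h and 0 to 4 at 48 h, 0 to 3 and 0 to 1 for mean tail, 0 and 0 to 10 for the <30-nt share, 3 to 13 and 0 for the ~60-nt share, 2 and 0 to 1 for isoform share, 7 to 18 for isoform tails, 21 to 33 for 3′ end tails, 0 to 12 and 0 for tail per end, and 0 for end share and for both time differences. Without siCtl library 22 at 24 h there were 8 calls for level, 3 for mean tail, 13 for the ~60-nt share and 12 for tail per end, all at 24 h. Leaving out any one of the 48 h libraries gave 0 calls for the <30-nt share at 48 h, and leaving out siCtl library 19 or 21 at 24 h gave 4 and 3. Of the 5 members with longer distal tails, Hnrnpab and Hnrnpa1 passed under each of 15 alternatives. Hnrnpa0 did not pass at 48 h alone (23.7 nt, adjusted p = 0.0577) and Hnrnpa3 did not pass there (12.7 nt, adjusted p = 0.285). Depth limits the distal ends and the <30-nt class, where single libraries held few reads or none.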

Other observations

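Unlike tails at 3′ ends were also looked for in related genes that are not on the list, named here after their values were seen. Pcbp2, a poly(C)-binding KH protein related to Hnrnpk, had a distal minus proximal difference of -16.7 nt (limma, adjusted p = 0.0264). Its ends lay only 38 nt apart on the genome, against 349 to 1639 nt in the members tested. Tardbp, an RNA-binding protein of splicing and transport, had a difference of 16.3 nt (adjusted p = 0.0695), and Ptbp1, the polypyrimidine tract-binding protein, of -0.78 nt. In Hnrnpf, a binder of G-rich RNA, the second most read contig had tails 14.996 nt longer than the most read (limma, adjusted p = 0.0376).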
